A study of Mus musculus with 16 samples.

Results

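The genes described here are the interleukins and the interleukin receptors of the mouse, in spinal cord with and without a long-standing crush injury. They were taken from the raw gene count table as every row whose gene name starts with Il and a digit, with Il1a, Il1b, Il1rn and Il18 left out. The rule found 79 of 43346 rows: 35 ligands, 36 receptor chains, 4 soluble or decoy receptors, the synaptic proteins Il1rapl1 and Il1rapl2, the enzyme Il4i1 and the antisense RNA Il1bos. Of these, 57 had enough counts to be tested and 22 (18 of them ligands) had not.

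RNA was sequenced from 4 epicenter, 4 above, 4 below and 4 uninjured spinal cord libraries of adult female mice, 12 weeks old, of a wild-type strain written C57BL7J in the labels. The lumbar cord (L1/L3) had been bruised and squeezed with an 8 g Fejota clip, and tissue was taken on day 30. Injured cord was cut into a 3 mm piece holding the lesion (epicenter), a 3 mm piece on its head side (above) and a 3 mm piece on its tail side (below). Uninjured cord was taken as a single 9 mm piece from T11 to S1, so it holds together the levels that the injured cord gives separately, and its libraries carry the same time label. All 16 libraries share strain, sex, age and the wild-type label. The labels do not say that the libraries of a group are separate animals, nor which pieces share a cord, so the error behind each p-value is the spread among the libraries sequenced, part or all of which may be technical.

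Interleukins are secreted proteins by which immune cells, glia and vessel cells signal to each other. Most act through receptors of several chains, of which some are private to a ligand (Il7r, Il21r, Il6ra) and others are shared, such as the common gamma chain Il2rg and gp130 (Il6st). Receptors of the gamma-chain, gp130, IL-10 and IL-12 types signal through JAK kinases and STAT transcription factors, whereas those of the IL-1 and IL-17 types recruit the adaptors MyD88 and Act1. In the cord, microglia and arriving macrophages carry many of these receptors, and the alarmin Il33 is known to be stored in the nuclei of glia.

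Each library held between 65627900 and 90004371 counts. Levels are in CPM, a gene's counts in every 1000000 counts of its library, with the library size corrected by edgeR's TMM factors. Where a gene had 0 counts in a library, up to 3 counts were possible at 95% confidence, or 0.0316 to 0.0485 CPM, from counting error alone. The tissue label was borne out by its markers: 8 oligodendrocyte genes summed to 13685 CPM or more and 7 neuronal genes to 1386 CPM or more in all 16 libraries. Library below 3 stood apart from its group, with 4694 CPM over 10 microglia and macrophage genes and 1386 CPM over the neuronal genes, against 647 to 1877 and 4023 to 5572 CPM in below 1, 2 and 4. Library above 1 stood apart in fibroblast genes (323 against 69.0 to 72.8 CPM in above 2, 3 and 4) and Schwann cell genes (339 against 67.0 to 68.9 CPM). For many results that rest on either library, values without it are also given. In such bulk tissue, fewer cells of a type and less RNA per cell cannot be told apart.

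Interleukin receptor genes rose in the injured cord, more of them at and below the lesion than above it. Genes are said to rise or fall at an adjusted p under 0.05 in edgeR's quasi-likelihood test. At the epicenter 37 of the 57 tested genes rose against uninjured cord and 7 fell, beside 61.3% of all 23769 tested genes that changed, 31.9% upward and 29.3% downward. The median log2 fold change of the 57 was 1.45, against 0.00 over all tested genes. Receptor chains made up most of the rise, with 26 of 33 tested chains higher and 3 lower and a median of 2.10. Among ligands 8 of 17 tested were higher and 2 lower, with a median of 0.58. These are shares of genes that passed a filter on low counts, and a gene expressed in the lesion alone passes it through that group.

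Below the lesion 33 of the 57 rose and 4 fell (median 0.93, against -0.00 over all tested genes), beside 39.3% of all tested genes that changed, 23.6% upward and 15.7% downward. With library totals alone in place of TMM factors, the median of all tested genes moved by 0.14 on the log2 scale and the split over all genes became 7615 higher and 1421 lower, while that of the interleukin genes was 33 higher and 2 lower. Leaving out single libraries gave 31 to 37 called interleukin genes below the lesion. In the segment above, 6 rose and 0 fell (median 0.29, against 0.00), beside 3.54% of all tested genes that changed, 3.09% upward and 0.446% downward. At an unadjusted p under 0.05, 20 genes were higher and 1 was lower above the lesion. The share of all tested genes at that unadjusted threshold was not counted, here or for the families and lists that follow. The 3.54% is therefore not its background. DESeq2 called 13 higher and 0 lower there, and limma-voom 0 in either direction. The 3 comparisons with uninjured cord use the same 4 uninjured libraries, so their values are not independent of each other.

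**Figure D1:**
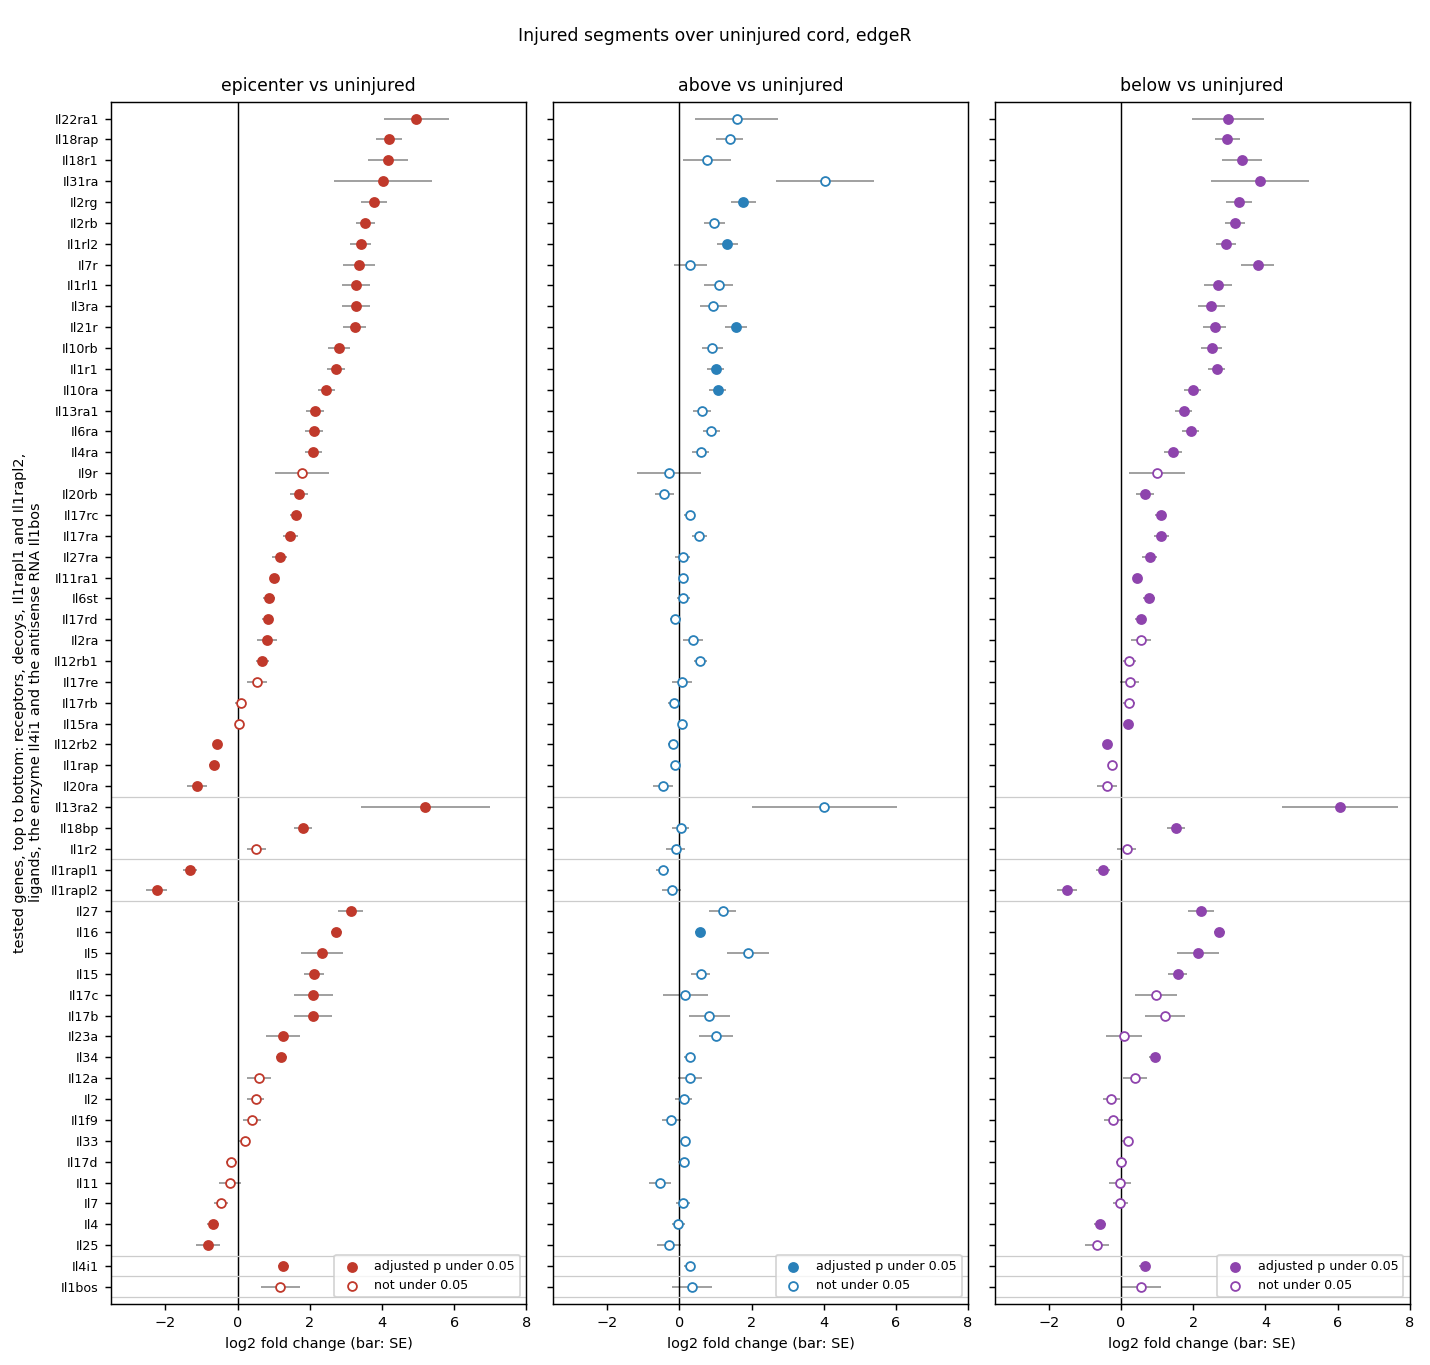
Log2 fold change over uninjured cord (x axis, bar: SE) for the 57 tested genes (y axis), in the epicenter, above and below segments, with filled points at an adjusted p under 0.05. Most receptor chains lie right of 0 at the epicenter and below, and 6 points are filled in the panel of the segment above. The bars of Il13ra2, which had 0 counts in uninjured cord, depend on the small count that the fit adds.

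By segment, 6 genes rose in all 3 injured segments: Il10ra, Il16, Il1r1, Il1rl2, Il21r and Il2rg. Above the lesion, Il2rg and Il21r were called in 25 of 26 settings of the analysis, Il1rl2 in 24, Il10ra in 21, Il1r1 in 20 and Il16 in 10, and without uninjured 1 the calls were those of Il2rg and Il21r. A further 26 rose at the epicenter and below, and 5 (Il12rb1, Il17b, Il17c, Il23a and Il2ra) were called at the epicenter and in neither other segment. Il12rb2, Il1rapl1, Il1rapl2 and Il4 fell at the epicenter and below, and Il1rap, Il20ra and Il25 fell at the epicenter. Il15ra was called below and not elsewhere, and 12 genes were called in no comparison with uninjured cord. Of all 23769 tested genes 31.9%, 3.09% and 23.6% rose at the epicenter, above and below, and 29.3%, 0.446% and 15.7% fell. How many of them shared each of these patterns was not counted, so no pattern is shown to be particular to the interleukin genes.

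The promoters of 4 genes that rose are printed because these genes rose at the epicenter and below while their start regions hold different searched motifs or none. Each line gives the 150 bases before the RefSeq start on GRCm38.p6 (the assembly behind mm10), 5′ to 3′ on the gene's strand, with letters in capitals where a searched motif matches on either strand. Il7r lies at chr15:9529877-9530026 (minus strand) and holds a STAT-type TTCNNNGAA. Il18rap, at chr1:40515212-40515361 (plus strand), holds 2 copies of the PU.1-type GAGGAAG. Il16, at chr7:83735540-83735689 (minus strand), holds an AP-1-type TGANTCA, and this RefSeq start lies 10187 bases inside the row's own 5′ end. Il2rg, at chrX:101268256-101268405 (minus strand), holds none of the motifs in this window.
Il7r: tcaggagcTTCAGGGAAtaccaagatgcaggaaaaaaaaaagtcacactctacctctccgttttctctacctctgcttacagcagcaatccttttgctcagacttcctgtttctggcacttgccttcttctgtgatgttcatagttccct
Il18rap: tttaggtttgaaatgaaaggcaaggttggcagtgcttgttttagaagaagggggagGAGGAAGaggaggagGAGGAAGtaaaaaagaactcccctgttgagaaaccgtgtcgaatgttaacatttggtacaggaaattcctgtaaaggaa
Il16: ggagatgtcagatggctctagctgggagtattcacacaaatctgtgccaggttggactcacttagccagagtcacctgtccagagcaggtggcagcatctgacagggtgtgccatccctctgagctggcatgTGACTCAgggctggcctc
Il2rg: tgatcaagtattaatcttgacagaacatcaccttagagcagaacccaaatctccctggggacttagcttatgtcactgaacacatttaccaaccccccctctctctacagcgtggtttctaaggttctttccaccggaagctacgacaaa
RefSeq start regions were found for 62 of the 79 genes, and the one nearest the row's own 5′ end was used for each. The background of 32851 holds every listed start region, without such a choice, so the sets are unlike. In the 250 bases before the start, the STAT-type motif was in 7 (11.3%) of the 62 genes. It was in 2 (7.69%) of the 26 with such a region that rose at the epicenter, and in 7.02% of all 32851 start regions. The PU.1-type motif was in 8.06%, 7.69% and 10.6% of the same 3 sets, the AP-1-type motif in 16.1%, 11.5% and 6.75%, and the NF-kB consensus in 6.45%, 7.69% and 7.25%. Among the 26 each share stands for 2 or 3 genes. A match of letters is a description and does not show that a factor binds there.

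Il33 was the most abundant ligand, and its groups differed little. Il33 had 158, 168, 155 and 137 CPM at the epicenter, 148, 160.0, 155 and 141 above, 137, 129.6, 223 and 125 below and 141, 141, 129.7 and 129.7 in uninjured cord. All groups overlapped, and below 3 was the highest library. Per kilobase of gene model, Il33 stood at 53.5, 52.4, 53.3 and 46.9 CPM in epicenter, above, below and uninjured cord, first of all 79 genes in each group. Its log2 fold change was 0.19 ± 0.15 at the epicenter (adjusted p = 0.266), 0.16 ± 0.14 above (0.69) and 0.18 ± 0.14 below (0.328), none past the threshold. Without below 3 the epicenter value kept its size with a smaller standard error, 0.19 ± 0.07, and passed (adjusted p = 0.0197). That of the segment below was then -0.05 ± 0.07 (adjusted p = 0.628).

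Il16, a chemoattractant made from a long precursor and known to act through CD4, was the ligand with the largest difference between the above and below segments. It had 30.4, 25.7, 33.7 and 32.7 CPM at the epicenter, 9.33, 5.75, 6.16 and 6.32 above, 31.3, 26.8, 34.8 and 29.3 below and 3.96, 5.35, 4.50 and 4.66 in uninjured cord. Epicenter and below libraries lay together, at over 2 times the highest library of the segment above, and no above library overlapped the uninjured ones. The fold changes over uninjured cord were 2.73 ± 0.16 at the epicenter (adjusted p = 7.30e-08), 0.57 ± 0.15 above (0.0439) and 2.72 ± 0.16 below (7.36e-08). Without above 1, the highest of its group, the value above was 0.40 ± 0.12 and no longer passed (adjusted p = 0.133). The Il16 row shares 15.3% of its exonic bases with Stard5 on the opposite strand, and the kit does not mark the strand.

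Il34, the second ligand of the CSF1 receptor beside Csf1, was at 33.5, 29.2, 28.5 and 31.3 CPM at the epicenter, 21.5, 14.5, 14.5 and 14.6 above, 26.2, 19.6, 32.2 and 23.1 below and 12.2, 12.1, 14.2 and 14.6 in uninjured cord. Epicenter and below libraries all exceeded the uninjured ones, and the segment above overlapped them except for above 1. It rose by 1.21 ± 0.15 at the epicenter (adjusted p = 1.07e-05) and 0.93 ± 0.15 below (0.000256). Its receptor Csf1r, a microglia and macrophage marker, had 352, 295, 367 and 253 CPM at the epicenter, 183, 173, 198 and 183 above, 256, 179, 357 and 230.4 below and 80.2, 84.6, 86.1 and 86.4 in uninjured cord. Csf1r rose in all 3 segments, by 1.91 ± 0.17 at the epicenter (adjusted p = 6.03e-07), 1.12 ± 0.16 above (0.0014) and 1.60 ± 0.17 below (5.80e-06).

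Il15, which supports NK cells and memory T cells and shares receptor chains with IL-2, had 4.41, 5.19, 4.64 and 3.68 CPM at the epicenter and 2.68, 1.79, 5.06 and 2.79 below, against 1.37, 0.842, 1.08 and 0.846 in uninjured cord. It rose by 2.11 ± 0.27 at the epicenter (adjusted p = 1.03e-05) and 1.57 ± 0.27 below (0.000327), and no library of either segment overlapped uninjured cord. Il27, the p28 chain that pairs with Ebi3, was scarce in each group, at 0.661 ± 0.107, 0.173 ± 0.0561, 0.349 ± 0.1002 and 0.0728 ± 0.0348 CPM in epicenter, above, below and uninjured cord (SD, n = 4 each). It rose by 3.13 ± 0.35 at the epicenter (adjusted p = 3.50e-06) and 2.21 ± 0.36 below (0.000244), with 10.1% of its exonic bases shared with Apobr on the opposite strand. Il5, Il17b, Il17c and Il23a stayed at or under 0.609 CPM in every library. Their epicenter rises were 2.33 for Il5, 2.09 for Il17b, 2.09 for Il17c and 1.25 for Il23a on the log2 scale, with adjusted p between 0.00277 and 0.0321.

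Ligands that fell were few. Il4, the type 2 cytokine of helper T cells, had 5.30, 5.34, 4.56 and 6.84 CPM at the epicenter, 9.61, 9.47, 8.21 and 7.70 above, 5.87, 7.53, 3.84 and 6.38 below and 9.43, 9.09, 8.71 and 8.32 in uninjured cord. Its epicenter and below libraries all lay under the lowest uninjured library, and the above libraries overlapped uninjured cord. The log2 fold change was -0.69 ± 0.17 at the epicenter (adjusted p = 0.00262) and -0.59 ± 0.17 below (0.013). This row held 8.32 to 9.43 CPM in uninjured cord, where 10 T and NK cell genes summed to 0.437 to 0.966 CPM and Cd3g had 0 counts. Il25, known as IL-17E, fell at the epicenter by 0.83 on the log2 scale (adjusted p = 0.0442), at 0.232 ± 0.108 CPM against 0.407 ± 0.0599 CPM in uninjured cord. Il17d was at 4.29 ± 0.408, 5.30 ± 0.309, 4.88 ± 1.12 and 4.85 ± 0.653 CPM in the 4 groups and Il7, the survival factor of lymphocytes, at 0.840 ± 0.140, 1.24 ± 0.271, 1.15 ± 0.216 and 1.16 ± 0.206 CPM. Neither was called against uninjured cord, nor were Il2, Il11, Il12a and Il1f9 (IL-36 gamma), which stayed at or under 1.77 CPM in every library. Among the other uncalled genes Il9r, Il17re and the antisense RNA Il1bos stayed at or under 0.524 CPM.

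Many of the best known interleukins were near the limit of counting. Il17a and Il1f6 had 0 counts in all 16 libraries, and Il9, Il20, Il22, Il24, Il31, Il1f5, Il1f8 and Il1f10 had 3 counts or fewer in all. Il6 held 36 counts over the 4 epicenter libraries, 22 above, 14 below and 9 in uninjured cord. Il10 held 17, 4, 4 and 6 counts in the same order of groups, Il12b 26, 4, 19 and 8, and Il13 22, 5, 32 and 15. Il21 held 22, 41, 27 and 22 counts, Il19 24, 32, 21 and 22, Il17f 24, 21, 22 and 17, and Il3 11, 8, 14 and 2. Among receptors Il23r had 9, 2, 10 and 1 counts, Il5ra 5, 5, 4 and 9, Il11ra2 4, 4, 3 and 1, and the secreted Il22ra2 1, 2, 4 and 0. None of these 22 genes passed the filter on low counts, and differences between their groups were not tested.

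Of 12 tested genes of the gamma-chain family, ligands included, 7 rose and 1 (Il4) fell at the epicenter, 2 rose above, and 7 rose and 1 (Il4) fell below. That is 66.7% called at the epicenter and also below, near the 61.3% of all tested genes at the epicenter and over the 39.3% below. In the segment above it is 16.7%, beside 3.54% of all tested genes. Il2rg, the chain shared by the receptors of IL-2, IL-4, IL-7, IL-9, IL-15 and IL-21, had 12.1, 12.2, 12.2 and 6.87 CPM at the epicenter, 2.97, 2.97, 2.57 and 2.30 above, 6.17, 3.73, 13.7 and 6.76 below and 0.695, 0.952, 0.516 and 1.00 in uninjured cord. Every injured library exceeded every uninjured one, and the segment above lay between uninjured cord and the segment below without overlap. Its log2 fold changes over uninjured cord were 3.78 ± 0.36 at the epicenter (adjusted p = 9.94e-07), 1.77 ± 0.35 above (0.00987) and 3.26 ± 0.35 below (7.68e-06). The row shares 30.5% of its exonic bases with the same-strand model Gm20489, which averaged 5.87, 1.60, 4.57 and 0.524 CPM in epicenter, above, below and uninjured cord, so reads may be split between both.

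Il21r, the private chain of the IL-21 receptor, had 14.6, 12.6, 15.7 and 10.7 CPM at the epicenter, 4.76, 4.20, 4.34 and 3.67 above, 6.99, 3.95, 15.5 and 8.01 below and 1.33, 1.38, 1.19 and 1.79 in uninjured cord. Again all 12 injured libraries were above all 4 uninjured ones, and below 2 lay within the range of the segment above. It rose by 3.24 ± 0.32 at the epicenter (adjusted p = 1.23e-06), 1.58 ± 0.31 above (0.00959) and 2.60 ± 0.31 below (1.77e-05). Il4ra, its neighbour 23.96 kb away on chromosome 7 and the signalling chain for IL-4 and IL-13, had 43.2, 38.3, 41.7 and 34.4 CPM at the epicenter, 15.7, 12.4, 14.1 and 13.3 above, 22.1, 13.7, 42.8 and 21.3 below and 8.33, 9.39, 9.75 and 9.28 in uninjured cord. No injured library overlapped the uninjured ones, and below 3 was at the level of the epicenter. The rises were 2.10 ± 0.24 at the epicenter (adjusted p = 4.65e-06) and 1.44 ± 0.24 below (0.000277), and the value above, 0.59 ± 0.24, did not pass (0.237).

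Il7r, the receptor chain for IL-7 and TSLP and a marker of T cells and other lymphoid cells, was not called above the lesion. It had 3.55, 3.79, 7.53 and 3.89 CPM at the epicenter, 0.396, 0.512, 0.808 and 0.513 above, 7.20, 1.59, 9.30 and 7.06 below and 0.533, 0.428, 0.400 and 0.459 in uninjured cord. The above libraries overlapped the uninjured ones, while below 1, 3 and 4 exceeded 3 of the 4 epicenter libraries. The values were 3.37 ± 0.45 at the epicenter (adjusted p = 1.73e-05), 0.30 ± 0.46 above (0.837) and 3.79 ± 0.45 below (1.74e-05). Il2rb, shared by the IL-2 and IL-15 receptors, had 3.11, 2.69, 3.16 and 2.55 CPM at the epicenter and 2.42, 1.22, 2.31 and 2.94 below, against 0.145, 0.276, 0.296 and 0.258 in uninjured cord. It rose by 3.54 ± 0.27 and 3.16 ± 0.27 in these segments (adjusted p = 3.12e-07 and 1.77e-06). Il2ra, the high-affinity chain for IL-2, rose at the epicenter (0.81 ± 0.28, adjusted p = 0.0199). Il15ra differed little anywhere, at 9.42 ± 0.559, 9.66 ± 0.209, 10.4 ± 0.179 and 9.13 ± 0.589 CPM in the 4 groups, and was called below (0.19 ± 0.07, adjusted p = 0.0419), in 10 of 26 settings of the analysis.

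**Figure D2:**
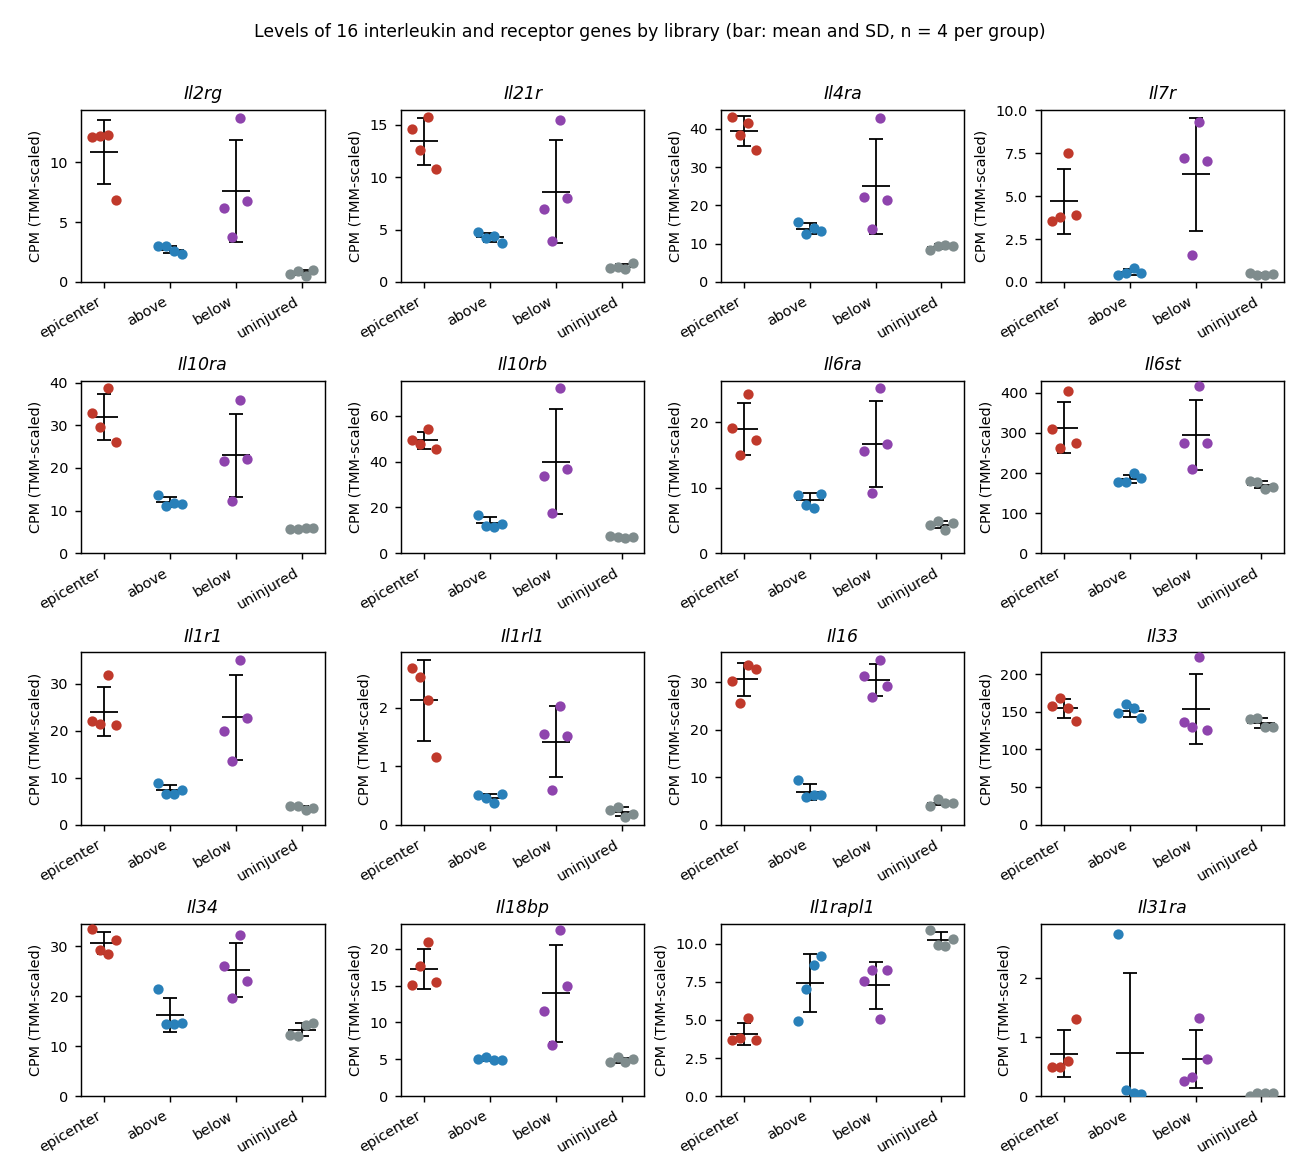
CPM of 16 genes (y axis of each panel, from 0) in the epicenter, above, below and uninjured libraries (x axis). Points are libraries 1 to 4 and bars the mean and SD. Below 3 is the highest below library of most receptor panels, as with Il10rb at 71.9 CPM, and above 1 is alone at 2.76 CPM in the panel of Il31ra.

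Marker genes of several cell types rose at the epicenter and below. The 10 T and NK cell genes summed to 7.15 to 8.15 CPM at the epicenter, 1.00 to 1.41 above, 2.59 to 8.44 below and 0.437 to 0.966 in uninjured cord, and 9 of the 10 rose at the epicenter, 1 above and 9 below. The 10 microglia and macrophage genes summed to 2373 to 3492 CPM at the epicenter, 545 to 601 above, 647 to 4694 below and 203 to 221 in uninjured cord, with 9, 10 and 9 of them higher. Mast cell genes, 6 in all, summed to 5.75 to 10.5 CPM at the epicenter, 0.0244 to 0.113 above, 0.527 to 8.51 below and 0.0257 to 0.0970 in uninjured cord, where Cpa3, Mcpt4, Tpsb2 and Tpsab1 had 0 counts. Neutrophil genes, also 6, summed to 29.6 to 254 CPM at the epicenter, 3.86 to 14.1 above, 11.5 to 22.6 below and 1.23 to 1.49 in uninjured cord. Fibroblast genes, 6 in all, summed to 2478 to 3667 CPM at the epicenter, 69.0 to 323 above, 414 to 1718 below and 46.6 to 64.1 in uninjured cord, with 6, 1 and 6 of them higher. Schwann cell genes, 5 in all, summed to 1210 to 1831 CPM, 67.0 to 339, 1434 to 2227 and 62.1 to 124 CPM in the same order of groups, with 5 of them higher at the epicenter and 5 below. Above, 0 were called in edgeR, DESeq2 and limma-voom (0 also at an unadjusted p under 0.05). The 5 B and plasma cell genes summed to 4.84 to 7.72 CPM, 0.991 to 1.35, 1.59 to 3.19 and 0.660 to 1.27 CPM, with 5 higher at the epicenter and 4 below. Above, 0 of these were called in edgeR, DESeq2 and limma-voom (1 at an unadjusted p under 0.05). At the epicenter, 2 of 6 astrocyte genes rose and 1 fell, and 3 of 5 endothelial and 3 of 5 skeletal muscle genes rose. Of 8 oligodendrocyte genes 1 rose and 5 fell there, and of 7 neuronal genes 6 fell. Of all tested genes 31.9% rose at the epicenter, 3.09% above and 23.6% below. The part of any of these cells in the rises of receptor genes was not tested.

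In the IL-13, IL-3 and IL-5 family all 4 tested members rose at the epicenter and below, and 0 of 4 above (3 at an unadjusted p under 0.05, 1 by DESeq2 and 0 by limma-voom), beside 61.3%, 39.3% and 3.54% of all tested genes called in the 3 comparisons. Il13ra1, which pairs with Il4ra for IL-4 and IL-13, had 28.8, 29.1, 36.6 and 26.7 CPM at the epicenter, 12.5, 10.4, 10.4 and 8.92 above, 19.4, 12.4, 36.2 and 23.1 below and 7.94, 6.87, 5.61 and 6.93 in uninjured cord. All injured libraries exceeded all uninjured ones. It rose by 2.15 ± 0.24 at the epicenter (adjusted p = 3.93e-06) and 1.74 ± 0.24 below (6.08e-05). Il3ra, the private chain of the IL-3 receptor, was at 19.2, 17.0, 14.5 and 15.9 CPM at the epicenter, 3.84, 3.52, 2.55 and 3.33 above, 7.46, 3.68, 20.1 and 7.87 below and 1.39, 1.74, 1.69 and 2.06 in uninjured cord. Library below 3 exceeded all epicenter libraries and the other below libraries lay under them. The rises were 3.27 ± 0.38 at the epicenter (adjusted p = 5.12e-06) and 2.50 ± 0.37 below (0.000111).

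The decoy receptor Il13ra2, which binds IL-13 with high affinity, had 0 counts in all 4 uninjured libraries. It had 17 counts over the epicenter libraries, 8 above and 35 below. Set against 3 counts over the whole uninjured group, its pooled level was 5.28-fold higher at the epicenter, 2.29-fold higher above and 9.76-fold higher below. These ratios allow for counting error in uninjured cord alone. They leave out the counting error and spread of the injured libraries, so they are not lower limits. The test called it at the epicenter (adjusted p = 0.0235) and below (0.011), and not above (0.395).

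Among the IL-6 type genes, which signal through gp130, 6 of 7 tested rose at the epicenter, 6 below and 0 above (3 at an unadjusted p under 0.05, 2 by DESeq2 and 0 by limma-voom). This made 85.7% at the epicenter and also below, beside 61.3% and 39.3% of all tested genes. The shared chain Il6st was the most abundant receptor per kilobase in every group. It had 311, 262, 405 and 276 CPM at the epicenter, 178, 177, 199.9 and 187 above, 275, 209.5, 417 and 274 below and 181, 177, 161 and 166 in uninjured cord. Epicenter and below libraries lay above all uninjured ones, and the above libraries overlapped them. The rise was modest, 0.87 ± 0.17 at the epicenter (adjusted p = 0.000485) and 0.78 ± 0.17 below (0.00251). Il6ra, the private chain for IL-6, had 19.0, 14.9, 24.3 and 17.3 CPM at the epicenter, 8.93, 7.41, 6.89 and 9.05 above, 15.6, 9.26, 25.2 and 16.7 below and 4.27, 4.91, 3.61 and 4.66 in uninjured cord. All groups of injured libraries were clear of uninjured cord. It rose by 2.12 ± 0.24 at the epicenter (adjusted p = 3.98e-06) and 1.93 ± 0.24 below (2.20e-05), and its value above of 0.89 ± 0.24 just missed the threshold (0.0505).

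Il11ra1, the IL-11 receptor, was at 28.9, 34.2, 25.03 and 35.8 CPM at the epicenter, 17.8, 17.4, 15.5 and 15.3 above, 20.3, 18.6, 25.4 and 19.9 below and 15.7, 15.0, 16.0 and 15.2 in uninjured cord. The rise of 1.00 ± 0.12 at the epicenter (adjusted p = 4.55e-06) went with 0.44 ± 0.12 below (0.00731). Reads of the near-identical copy Il11ra2, which held 4, 4, 3 and 1 counts over the 4 groups, may be split with it. Il27ra, the private chain for IL-27, was at 1.91 ± 0.424, 0.908 ± 0.208, 1.47 ± 0.277 and 0.850 ± 0.120 CPM in the 4 groups and rose at the epicenter (1.16 ± 0.20, adjusted p = 0.00019) and below (0.79 ± 0.20, adjusted p = 0.00713). Il31ra, a receptor chain for IL-31 that lies 12.7 kb from Il6st, had 0.489, 0.486, 0.603 and 1.31 CPM at the epicenter, 2.76, 0.0975, 0.0455 and 0.0342 above, 0.263, 0.316, 1.33 and 0.626 below and 0, 0.0552, 0.0516 and 0.0574 in uninjured cord. The highest of all 16 libraries was above 1, and the other above libraries were lower than every epicenter and below library. It rose at the epicenter (4.03 ± 1.36, adjusted p = 0.0183) and below (3.85 ± 1.36, adjusted p = 0.0361), where the call was lost without below 3 (adjusted p = 0.0926). Its value above the lesion was 4.03 ± 1.36 (adjusted p = 0.144), and 0.45 ± 0.94 without above 1.

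Of 12 tested IL-1 family genes 6 rose and 3 fell at the epicenter, 2 rose above, and 6 rose and 2 fell below. The shares called, 75.0% at the epicenter, 16.7% above and 66.7% below, stand beside 61.3%, 3.54% and 39.3% of all tested genes. Most receptors of the family form a row on chromosome 1, chr1:40074079-40551705 of mm10, in the order Il1r2, Il1r1, Il1rl2, Il1rl1, Il18r1 and Il18rap. In this row the 5 signalling chains rose at the epicenter and below, and the decoy Il1r2 at one end did not pass in any comparison with uninjured cord. Il1r1, the signalling receptor for IL-1, had 21.99, 21.4, 31.8 and 21.1 CPM at the epicenter, 8.96, 6.57, 6.51 and 7.29 above, 19.95, 13.7, 35.1 and 22.7 below and 3.90, 4.01, 3.17 and 3.50 in uninjured cord. All 12 injured libraries exceeded all uninjured ones. It rose by 2.72 ± 0.24 at the epicenter (adjusted p = 6.03e-07), 1.01 ± 0.23 above (0.0225) and 2.65 ± 0.24 below (2.31e-06). Without above 1 the value above was 0.90 ± 0.24 and did not pass (adjusted p = 0.0800). Il1r2 had 0.703, 0.617, 0.697 and 1.22 CPM at the epicenter, 0.396, 0.609, 0.410 and 0.673 above, 0.626, 0.685, 0.526 and 0.665 below and 0.744, 0.566, 0.528 and 0.416 in uninjured cord. Its groups overlapped, and its epicenter value was 0.52 ± 0.25, adjusted p = 0.0857.

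Il1rl2, the receptor for IL-36, was at 9.80, 9.43, 11.7 and 9.06 CPM at the epicenter, 2.16, 2.70, 2.38 and 2.20 above, 6.98, 3.14, 11.1 and 6.99 below and 0.695, 1.05, 1.04 and 0.946 in uninjured cord. Injured and uninjured libraries did not overlap. The rises were 3.41 ± 0.29 at the epicenter (adjusted p = 4.98e-07), 1.33 ± 0.28 above (0.0146) and 2.91 ± 0.29 below (4.11e-06). Il1rl1, known as ST2, the receptor for Il33, was low at 2.69, 2.53, 2.13 and 1.16 CPM at the epicenter, 0.509, 0.451, 0.376 and 0.525 above, 1.55, 0.590, 2.03 and 1.52 below and 0.259, 0.303, 0.129 and 0.186 in uninjured cord. Every injured library exceeded every uninjured one. The rise was 3.28 ± 0.38 at the epicenter (adjusted p = 5.10e-06) and 2.70 ± 0.38 below (7.21e-05), while its ligand Il33 passed in neither. Mast cells are known for high ST2. Mast cell genes were near 0 in the above and uninjured groups alike, and the part of these cells in the values of Il1rl1 was not tested.

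Il18r1 and Il18rap, the binding and accessory chains for IL-18, had the largest rises in the row. Il18rap had 1.26, 2.35, 2.57 and 3.25 CPM at the epicenter, 0.254, 0.402, 0.364 and 0.331 above, 0.939, 0.916, 1.12 and 1.02 below and 0.0970, 0.234, 0.0516 and 0.129 in uninjured cord. No group overlapped another, in the order epicenter, below, above and uninjured cord. It rose by 4.19 ± 0.36 at the epicenter (adjusted p = 5.32e-07) and 2.95 ± 0.36 below (1.85e-05), and Il18r1 by 4.16 ± 0.54 and 3.34 ± 0.55. The uninjured libraries held 13 counts of Il18r1 and 36 of Il18rap in all, so the size and rank of these rises rest on few counts. Il18bp, the secreted protein that captures IL-18, was at 15.0, 17.7, 20.9 and 15.5 CPM at the epicenter, 5.00, 5.28, 4.84 and 4.93 above, 11.6, 6.89, 22.5 and 15.0 below and 4.59, 5.30, 4.64 and 5.05 in uninjured cord. Above and uninjured libraries overlapped. It rose at the epicenter (1.82 ± 0.25, adjusted p = 2.16e-05) and below (1.51 ± 0.25, adjusted p = 0.000251).

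The accessory chain Il1rap, which Il1r1, Il1rl1 and Il1rl2 all need, was lower at the epicenter. It had 35.7, 36.0, 45.8 and 31.3 CPM at the epicenter, 45.7, 51.3, 62.5 and 59.7 above, 48.2, 47.9, 55.3 and 48.3 below and 64.3, 60.2, 53.9 and 57.7 in uninjured cord. The epicenter libraries were all under the lowest uninjured library, and the segment above overlapped uninjured cord. Il1rap fell at the epicenter (-0.67 ± 0.12, adjusted p = 0.000182), and its value below, -0.24 ± 0.12, did not pass (0.107). Il1rapl1, a neuronal relative that works as an adhesion protein at synapses, had 3.67, 3.82, 5.12 and 3.71 CPM at the epicenter, 4.90, 7.03, 8.63 and 9.17 above, 7.54, 8.26, 5.04 and 8.26 below and 10.9, 9.93, 9.86 and 10.3 in uninjured cord. Epicenter libraries were lowest together with above 1 and below 3, and no injured library reached the uninjured ones. It fell by 1.33 on the log2 scale at the epicenter (adjusted p = 3.39e-05) and by 0.50 below (0.0472). Without below 3 its value below was -0.36 ± 0.17 and did not pass (adjusted p = 0.115). Il1rapl2 fell by 2.24 at the epicenter (adjusted p = 1.46e-05) and by 1.50 below (0.000711), at 0.288 ± 0.0978 and 0.485 ± 0.185 CPM against 1.38 ± 0.230 CPM in uninjured cord. The 7 neuronal genes summed to 2549 to 4818 CPM at the epicenter, 7198 to 7650 above, 1386 to 5572 below and 7811 to 8425 in uninjured cord, and their part in these falls was not tested.

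In the IL-10 family 4 of 5 tested members rose and 1 fell at the epicenter, 1 rose above and 4 rose below, beside 61.3%, 3.54% and 39.3% of all tested genes called there. Il10ra, the private chain for IL-10, had 33.0, 29.6, 38.7 and 26.1 CPM at the epicenter, 13.7, 11.2, 11.8 and 11.6 above, 21.6, 12.2, 35.9 and 22.04 below and 5.58, 5.77, 5.96 and 5.87 in uninjured cord. Injured and uninjured libraries did not overlap. The rises were 2.46 ± 0.23 at the epicenter (adjusted p = 9.91e-07), 1.06 ± 0.23 above (0.0163) and 1.98 ± 0.23 below (1.34e-05). Without above 1 the value above was 0.99 ± 0.24 (adjusted p = 0.0530). Il10rb, shared by the receptors of IL-10 and IL-22, was at 49.3, 47.8, 54.4 and 45.5 CPM at the epicenter, 16.8, 12.0, 11.6 and 12.8 above, 33.5, 17.7, 71.9 and 36.8 below and 7.39, 7.16, 6.65 and 6.91 in uninjured cord. Its below libraries ranged from near the above segment to over the epicenter. It rose by 2.81 ± 0.30 at the epicenter (adjusted p = 2.15e-06) and 2.51 ± 0.29 below (1.45e-05), with 14.9% of its exonic bases shared with the same-strand model Gm21970.

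Receptors for IL-20 and IL-22, known mainly from skin and other epithelia, were scarce. Il22ra1 was at 0.691, 0.341, 0.362 and 1.01 CPM at the epicenter, 0.184, 0.0365, 0.0228 and 0 above, 0.1002, 0.0421, 0.167 and 0.294 below and 0.0323, 0, 0.0258 and 0.0143 in uninjured cord. Only the epicenter libraries all lay clear of the other 12. It had the largest fold change of any receptor chain at the epicenter (4.95 ± 0.89, adjusted p = 0.000236) and rose below (2.95 ± 1.00, adjusted p = 0.0295). The uninjured libraries held 5 counts of Il22ra1 in all, so the size and rank of these changes rest on few counts. Il20rb rose at the epicenter (1.70 ± 0.25, adjusted p = 3.53e-05) and below (0.65 ± 0.25, adjusted p = 0.0469, called in 11 of 26 settings), and its partner chain Il20ra fell at the epicenter (-1.13 ± 0.28, adjusted p = 0.00266). Il20rb averaged 1.97 ± 0.443 CPM at the epicenter against 0.603 ± 0.199 in uninjured cord, and Il20ra 0.633 ± 0.238 against 1.39 ± 0.114 CPM (SD, n = 4 each).

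In the IL-17 family 5 of 9 tested members rose and 1 fell at the epicenter, and 3 rose below. These shares, 66.7% and 33.3%, were near the background, 61.3% of all tested genes at the epicenter and 39.3% below. The segment above had 0 calls in either direction (1 higher at an unadjusted p under 0.05, 0 by DESeq2 and 0 by limma-voom). Il17ra, the common receptor chain, had 39.7, 36.9, 46.9 and 39.4 CPM at the epicenter, 24.01, 21.6, 21.3 and 20.6 above, 27.0, 19.99, 52.9 and 28.4 below and 14.1, 15.9, 14.3 and 15.1 in uninjured cord. No injured library overlapped uninjured cord. It rose by 1.45 ± 0.21 at the epicenter (adjusted p = 3.50e-05) and 1.11 ± 0.21 below (0.000794). Il17rc, which pairs with it for IL-17A and IL-17F, rose at the epicenter (1.61 ± 0.16, adjusted p = 1.16e-06) and below (1.10 ± 0.16, adjusted p = 7.45e-05). Il17rd, also known as Sef, rose in the same segments, by 0.84 ± 0.15 and 0.55 ± 0.15 (adjusted p = 0.00022 and 0.00996). Il17rb, the chain for IL-25, was at 3.90 ± 0.504, 3.34 ± 0.398, 4.28 ± 0.950 and 3.69 ± 0.444 CPM and was not called.

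In the IL-12 and IL-23 family 2 of 4 tested members (Il12rb1 and Il23a) rose and 1 (Il12rb2) fell at the epicenter, and Il12rb2 fell below. The background was 61.3% of all tested genes called at the epicenter and 39.3% below. Above, 0 were called (1 at an unadjusted p under 0.05, 1 by DESeq2 and 0 by limma-voom). Il12rb1, shared by both receptors, had 3.11, 2.42, 2.67 and 2.78 CPM at the epicenter, 2.43, 2.13, 2.58 and 3.07 above, 2.92, 1.66, 1.73 and 1.67 below and 1.52, 1.74, 1.59 and 1.96 in uninjured cord. Epicenter and above libraries exceeded all uninjured ones, and below 1 alone did so in its group. It rose at the epicenter (0.69 ± 0.18, adjusted p = 0.00456) and was not called above (0.59 ± 0.18, adjusted p = 0.109). Il12rb2 fell at the epicenter (-0.56 ± 0.12, adjusted p = 0.000773) and below (-0.39 ± 0.12, adjusted p = 0.0149), with 40.0% of its exonic bases shared with Serbp1 on the opposite strand. The enzyme Il4i1, an amino acid oxidase released by myeloid cells and named for its induction by IL-4, was at 18.6, 14.1, 18.2 and 17.5 CPM at the epicenter, 9.40, 8.54, 8.55 and 8.16 above, 10.3, 9.30, 15.8 and 9.48 below and 7.50, 6.80, 7.62 and 6.57 in uninjured cord. It rose at the epicenter (1.26 ± 0.15, adjusted p = 5.66e-06) and below (0.65 ± 0.15, adjusted p = 0.00311). As 83.9% of its exonic bases lie opposite exons of Tbc1d17, its values cannot be told apart from reads of that gene.

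**Figure D3:**
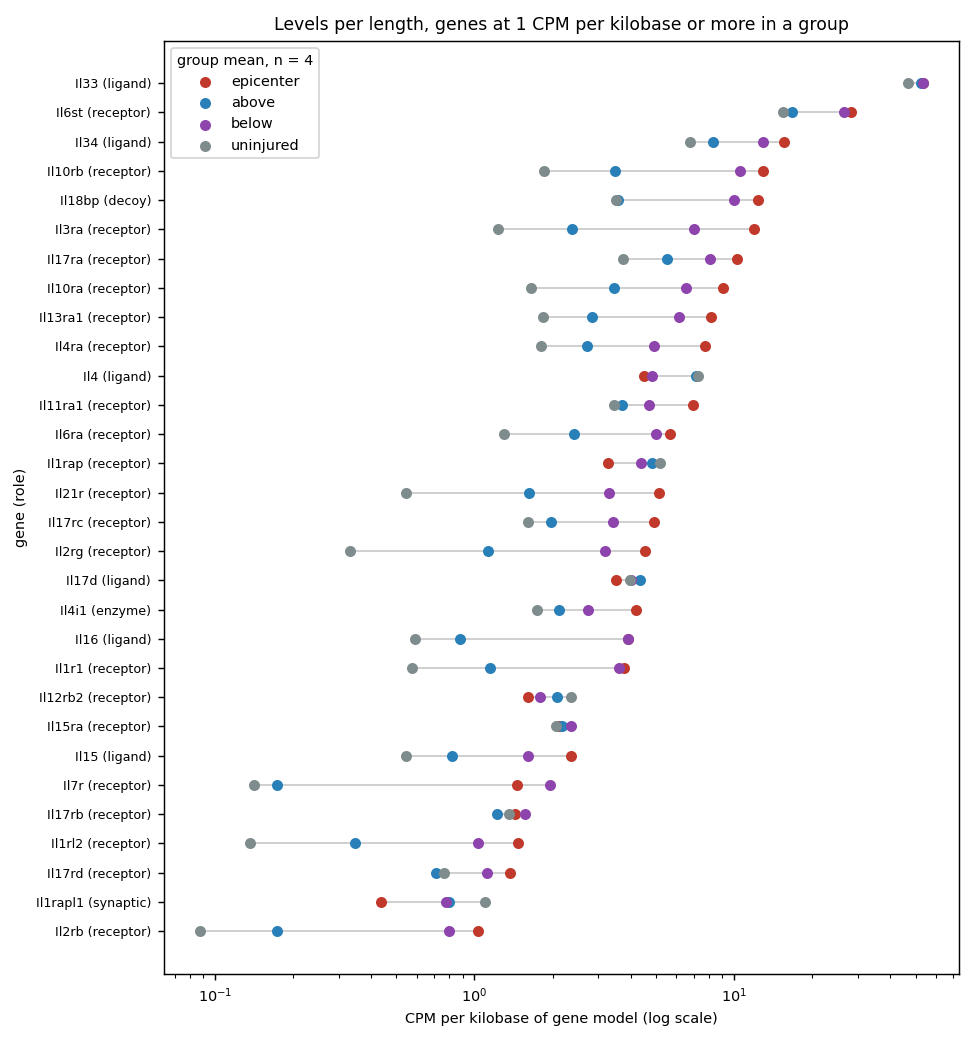
Mean CPM per kilobase of gene model (x axis, log scale) in the 4 groups for every gene at 1 or more in some group (y axis, with its role). Il33 is first in each group at 46.9 to 53.5, and Il10rb runs between 1.85 in uninjured cord and 12.9 at the epicenter.

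Levels of different genes were compared per kilobase of gene model. After Il33 and Il6st (28.2, 16.7, 26.5 and 15.4 CPM per kilobase in epicenter, above, below and uninjured cord), the order differed between groups. At the epicenter Il34 (15.6), Il10rb (12.9), Il18bp (12.3) and Il3ra (11.9) came next. In uninjured cord the next places went to Il4 (7.24), Il34 (6.78), Il1rap (5.20) and Il17d (3.97). Neighbours in these orders lie close, and their differences were not tested.

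Between segments, the epicenter differed most from the segment above. Against it 33 of the 57 genes were higher and 6 lower (median 0.94, against 0.02 over all tested genes), beside 52.7% of all tested genes that changed, 28.3% upward and 24.4% downward. The 6 lower genes were Il1rap, Il1rapl1, Il1rapl2, Il4, Il7 and Il12rb2. Il18r1 had the largest rise, 3.41 ± 0.49 (adjusted p = 8.84e-05), followed by Il22ra1 at 3.37 ± 0.73 and Il7r at 3.06 ± 0.44. The above libraries held 26 counts of Il18r1 and 18 of Il22ra1 in all, so the ranks of both rest on few counts. Il16 was higher by 2.15 ± 0.15 (adjusted p = 1.48e-06) and Il2rg by 2.01 ± 0.32 (0.000195). Il1r2, not called against uninjured cord, was called here (0.62 ± 0.25, adjusted p = 0.0484), as were Il9r (2.06 ± 0.75, adjusted p = 0.0313) and Il7 (-0.57 ± 0.20, adjusted p = 0.026); each of these 3 calls, and that of Il17b, was lost in some setting.

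The epicenter and the segment below were closer. Of the 57 genes 8 were higher at the epicenter and 2 lower (median 0.34, against 0.02), beside 21.3% of all tested genes that changed, 11% upward and 10.2% downward. With library totals alone the split was 7 higher and 4 lower. The 8 were Il22ra1 (2.00 ± 0.64), Il18rap (1.23 ± 0.29), Il20rb (1.04 ± 0.24), Il27 (0.92 ± 0.29), Il2 (0.77 ± 0.23), Il4i1 (0.61 ± 0.15), Il11ra1 (0.56 ± 0.11) and Il17rc (0.52 ± 0.15). Il1rapl1 was lower by 0.83 and Il1rap by 0.42 on the log2 scale. In a fit of these 8 libraries alone, 0 interleukin genes and 31 of all tested genes were called.

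How many genes were called here depended on below 3. Of the 37 genes that rose at the epicenter, 29 were at or over the lowest epicenter library in below 3, against 9 in below 1, 4 in below 2 and 11 in below 4. In below 3, 12 of the 37 exceeded the highest epicenter library, and in above 1 there was 1 (Il31ra), with none in the other above and below libraries. These 37 genes were chosen by their epicenter levels, and the same counts over all tested genes are not given here. Without below 3, 5609 of all 24048 tested genes were higher at the epicenter than below and 5448 lower. Of the tested interleukin genes, 24 were then higher and 6 lower. Among them Il4ra became 1.05 ± 0.14 (adjusted p = 3.23e-05), Il2rg 0.97 ± 0.24 (0.00348) and Il10rb 0.75 ± 0.18 (0.00376). Il16 stayed uncalled at 0.07 ± 0.14 (adjusted p = 0.712), as did Il7r at -0.17 ± 0.38 (0.745). The microglia and macrophage genes of below 3, at 4694 CPM, exceeded the 2373 to 3492 CPM of the epicenter, and their part in these values was not tested.

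**Figure D4:**
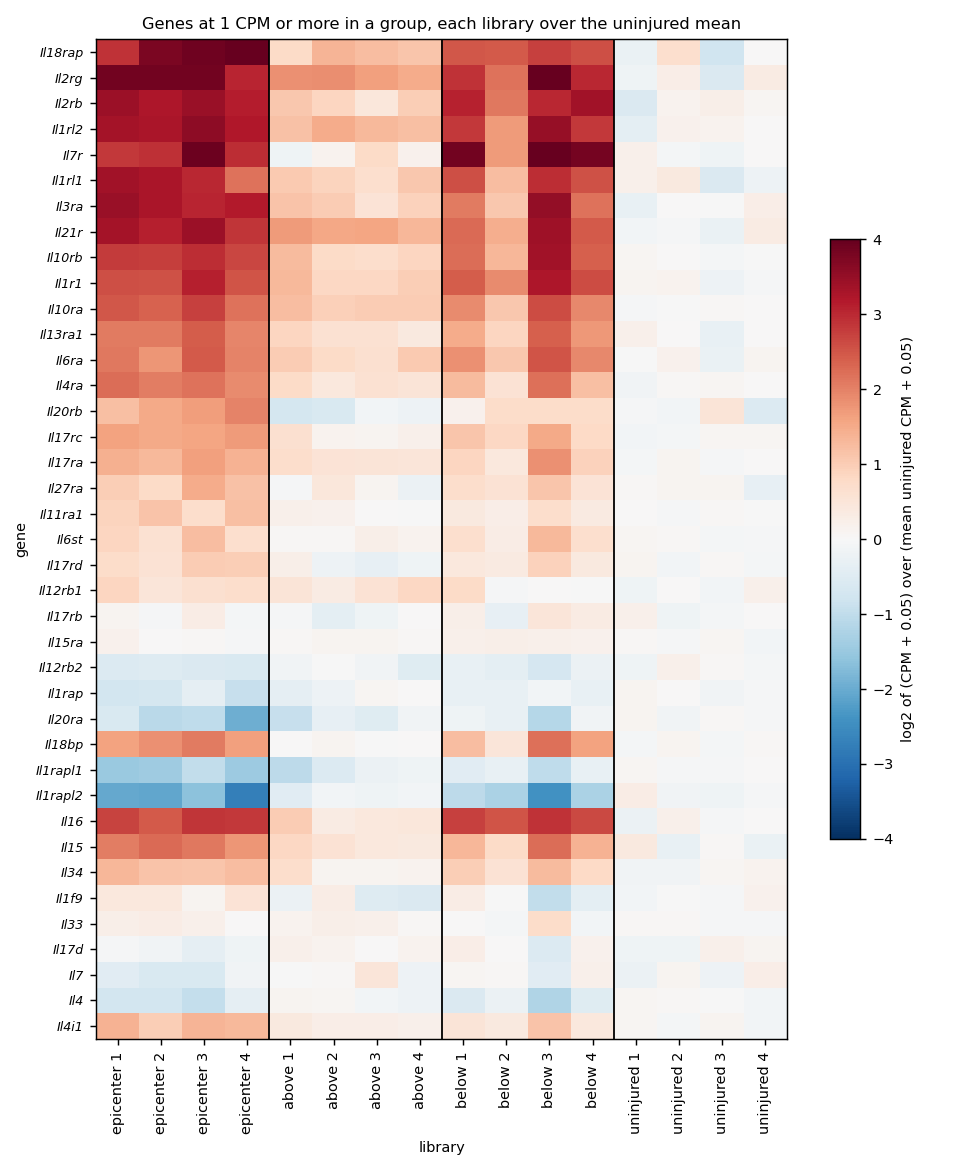
Log2 ratio of each library (x axis: libraries 1 to 4 of epicenter, above, below and uninjured cord) to the uninjured mean, with 0.05 CPM added to both, for genes at 1 CPM or more in some group (y axis); colours end at -4 and 4. In receptor genes such as Il10rb, below 3 (71.9 CPM) is as dark as the epicenter (45.5 to 54.4 CPM) and below 2 (17.7 CPM) is close to the segment above.

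In the fit of all 16 libraries, the segment above held less than the segment below for most tested receptor chains. Segments differ in cord level as well as in position by the lesion, and these cannot be told apart in any comparison between segments. Of the 57 genes 26 were lower above than below and 2 higher (median -0.64, against -0.03), beside 24.4% of all tested genes that changed, 9.11% upward and 15.2% downward. The 2 higher genes were Il4 (0.57 ± 0.17, adjusted p = 0.0254) and Il1rapl2 (1.29 ± 0.28, adjusted p = 0.00482). Without above 1 the split was 1 higher and 27 lower, and without below 3 it was 4 and 23. Over all tested genes these splits were 1492 and 3157, and 2285 and 2787. In a fit of these 8 libraries alone, 1 interleukin gene was higher and 12 lower, beside 460 and 1183 of all tested genes. Il7r had the greatest difference, -3.48 ± 0.44 (adjusted p = 0.000122), followed by Il18r1 at -2.59 ± 0.50 and Il2rb at -2.19 ± 0.25. Il16 followed at -2.15 ± 0.15 (adjusted p = 1.16e-06), with no overlap between the groups. Among the 33 tested receptor chains 21 were lower above than below and 0 higher in edgeR. No chain was higher above at an unadjusted p under 0.05 either (0 by DESeq2 and 0 by limma-voom).

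Without below 3, 1884 of all 24048 tested genes were called higher above than in uninjured cord and 414 lower. Of the interleukin genes 16 were then called, all higher: Il1r1, Il1rl2, Il18rap, Il6ra, Il17ra, Il16, Il4ra, Il21r, Il12rb1, Il10ra, Il5, Il3ra, Il2rb, Il10rb, Il13ra1 and Il2rg. Without above 1 there were 3 (Il1rl2, Il21r and Il2rg), and without both libraries 12. With both left out Il2rg was at 1.73 ± 0.27 (adjusted p = 0.000701) and Il10rb at 0.79 ± 0.17 (0.0101). The microglia and macrophage genes were raised in all 4 above libraries, 10 of 10 of them called. Of 7 neuronal genes 0 were called there in edgeR, DESeq2 and limma-voom (0 also at an unadjusted p under 0.05).

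Downstream of the receptors, genes of the JAK and STAT pathway were read from a list of 18. At the epicenter 13 rose and 2 fell, 5 rose above, and 12 rose and 1 fell below. Of all tested genes 61.3% were called at the epicenter, 3.54% above and 39.3% below. The median log2 fold changes of the list were 0.78, 0.35 and 0.63, against 0.00, 0.00 and -0.00 over all tested genes. Socs3, the feedback inhibitor of gp130 signalling and a STAT3 target, had 23.2, 22.1, 23.6 and 18.8 CPM at the epicenter, 6.63, 5.23, 6.52 and 6.37 above, 15.6, 7.19, 23.6 and 15.2 below and 1.57, 1.53, 1.82 and 1.86 in uninjured cord. Its injured libraries exceeded all uninjured ones without overlap. It rose by 3.69 ± 0.27 at the epicenter (adjusted p = 2.41e-07), 1.87 ± 0.25 above (0.000823) and 3.18 ± 0.26 below (1.31e-06). Jak3, the kinase bound by Il2rg, rose by 1.53 ± 0.14, 0.54 ± 0.13 and 1.18 ± 0.14 in epicenter, above and below. Jak1, which pairs with it, fell by 0.51 at the epicenter (adjusted p = 0.000114) and by 0.22 below (0.0472). Stat6, the factor for IL-4 and IL-13, rose at the epicenter (2.78 ± 0.26, adjusted p = 9.26e-07) and below (2.28 ± 0.26, adjusted p = 1.10e-05), and Stat4, the factor for IL-12, likewise (3.82 ± 0.33, adjusted p = 5.58e-07 and 3.28 ± 0.33, adjusted p = 4.82e-06).

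A list of 20 cytokines and receptors of the gp130 and CSF type without an Il name had 19 tested genes. Of these, 16 rose and 1 fell at the epicenter, 10 rose above, and 15 rose and 1 fell below, with medians of 2.25, 0.82 and 1.60. The shares of all tested genes called were 61.3%, 3.54% and 39.3% in the same order. Osm, oncostatin M, was at 2.92, 2.32, 2.82 and 2.26 CPM at the epicenter, 0.537, 0.633, 0.478 and 0.685 above, 1.65, 0.716, 3.41 and 1.67 below and 0.0970, 0.0552, 0.0516 and 0.0287 in uninjured cord. The groups of injured libraries were clear of uninjured cord. It rose by 5.46 ± 0.46, 3.32 ± 0.49 and 4.99 ± 0.47, and its receptor Osmr by 3.38 ± 0.32, 1.50 ± 0.30 and 3.17 ± 0.32, in the same order. Csf2rb, the beta chain that Il3ra shares with the receptors for IL-5 and GM-CSF, rose by 4.75 ± 0.41 at the epicenter (adjusted p = 5.59e-07), 2.46 ± 0.38 above (0.00233) and 4.48 ± 0.41 below (2.39e-06). Csf2rb2 is a near-identical copy and may share its reads. Ebi3, the partner of Il27, rose at the epicenter (2.58 ± 0.29, adjusted p = 4.04e-06) and below (2.04 ± 0.29, adjusted p = 7.84e-05), and Tslp, a second ligand of Il7r, at the epicenter (3.35 ± 0.67, adjusted p = 0.000552). The exception was Lifr, which fell at the epicenter (-0.57 ± 0.10, adjusted p = 0.000158) and below (-0.60 ± 0.10, adjusted p = 0.000239).

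Adaptors of the IL-1 and IL-17 receptors were read from a list of 12. Of these 8 rose and 2 fell at the epicenter, and 7 rose and 1 fell below, with medians of 0.60 and 0.54. The shares of all tested genes called were 61.3% at the epicenter and 39.3% below. Above the lesion 0 were called in edgeR (1 higher at an unadjusted p under 0.05, 0 by DESeq2 and 0 by limma-voom). Myd88, the adaptor of the IL-1 and IL-18 receptors, had 17.7, 16.4, 18.2 and 15.6 CPM at the epicenter, 9.27, 7.97, 8.85 and 8.50 above, 11.3, 9.07, 18.6 and 11.4 below and 6.00, 6.28, 6.37 and 6.78 in uninjured cord. It rose at the epicenter (1.42 ± 0.16, adjusted p = 4.57e-06) and below (0.99 ± 0.16, adjusted p = 0.000266). Irak3, an inhibitor of this route found in macrophages, rose by 1.72 ± 0.22 and 1.31 ± 0.22 in the same segments, and Tollip fell by 0.36 and 0.26 (adjusted p = 0.00186 and 0.0247). Traf6 and the Act1 gene Traf3ip2 were not called in any segment.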

How the data were processed

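RNA from 16 spinal cord libraries was made into libraries (TruSeq RNA Sample Prep Kit v2, which keeps no strand) and sequenced. Raw counts per gene, as whole numbers, are what the authors deposited. The tools listed in the submitters' processing notes are TopHat2 (2.0.12), Subread (1.4.4) and edgeR, on mm10. Which annotation release was used, and how multi-mapping reads were counted, is not given in the sources used here. The 37 mitochondrial rows held 0 counts. From these counts, edgeR 4.0.16 in R 4.3.3 fitted 1 quasi-likelihood model over all 16 libraries with TMM factors, after a filter on low counts by group (filterByExpr) that left 23769 rows and at least 99.969% of each library's counts. Adjusted p-values in the text are from this test with Benjamini-Hochberg adjustment over all tested rows in each of 6 comparisons, unless another tool is named, and ± after a log2 fold change is its standard error. CPM per kilobase used the table's own gene length. Shared exonic bases were counted in GENCODE M21, in which 55 of the 79 genes had the same start and end, and promoters came from RefSeq. DESeq2 1.42.0, limma 3.58.1 (voom), other scalings and filters, a replicate block, fits of 8 libraries and the removal of each library were alternatives. The genes, the marker and pathway lists and the rule for naming genes (a fixed list of 30, of which Il6, Il10 and Il12b were not tested, and the 10 largest called changes per comparison) were chosen with earlier results of these data known; other genes named were chosen after their values were seen.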

Additional observations from a re-analysis of the deposited data

Results flagged for a closer look

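In 16 of 147 groups of 4 libraries, the highest or lowest library lay far from the other 3 by Dixon's test at the 95% level, which chance alone does in about 1 of 20 groups. Library above 1 was the high one for Il16 (9.33 CPM), Il17rc (6.74 CPM), Il31ra (2.76 CPM) and Il34 (21.5 CPM). Library below 3 was the high one for Il33 (223 CPM) and Il4i1 (15.8 CPM), and for Il1rap (55.3 CPM) it also stood alone above its group. Library epicenter 3 was high for Il1r1 (31.8 CPM), Il1rapl1 (5.12 CPM) and Il7r (7.53 CPM). Library epicenter 4 was low for Il2rg (6.87 CPM) and high for Il31ra (1.31 CPM). Library below 1 was high for Il12rb1 (2.92 CPM) and low for Il20rb (0.689 CPM), and below 4 was high for Il18r1 (0.920 CPM). In uninjured cord, library 1 had 0 CPM of Il31ra. Fibroblast and Schwann cell genes were also higher in above 1 than in the rest of its group, and microglia and macrophage genes in below 3; their part in these values was not tested.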

How the results depend on the processing

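Over 26 settings, a gene was counted where the setting tested it. Of the 44 interleukin genes called at the epicenter against uninjured cord, 40 were called in every such setting (the exceptions were Il2ra, Il13ra2, Il23a and Il25). So were 30 of 37 below, 35 of 39 between epicenter and above, and 13 of 28 between above and below. Above against uninjured cord 0 of 6 were, and between epicenter and below 0 of 10. Calls kept in every setting were not counted over all tested genes. A filter of at least 1 CPM in 4 libraries left out scarce genes. With it, 27 interleukin genes were higher and 6 lower at the epicenter, against uninjured cord and also against the segment above. Over the 18173 genes then tested, 6610 were higher and 6156 lower against uninjured cord, and 5930 and 5002 against the segment above. The causes of the shifts that follow were not tested. Above against uninjured cord, the 6 interleukin and 841 overall calls became 13 and 1485 with DESeq2, 0 and 269 with limma-voom, 19 and 3684 in a fit of those 8 libraries, and 12 and 1661 without above 1 and below 3. Leaving out single libraries gave 2 (without uninjured 1) to 16 (without below 3) interleukin and 408 to 2298 overall calls. Between epicenter and below, the 10 and 5062 calls became 0 and 31 in a fit of 8 libraries and 30 and 11268 without above 1 and below 3, with 5 (without epicenter 4) to 30 (without below 3) interleukin and 2335 (without epicenter 4) to 11057 (without below 3) overall calls when single libraries were left out. Between above and below, the 28 and 5788 calls became 13 and 1643 in a fit of 8 libraries, and leaving out single libraries gave 3587 (without above 2) to 8262 (without below 2) overall calls.

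Library totals alone, in place of TMM factors, gave 1652 higher and 3729 lower genes between epicenter and below, against 2626 and 2436, and 953 and 5294 between above and below, against 2165 and 3623; upper-quartile factors gave 2038 and 2925 between epicenter and below. Signs turned for uncalled values near 0. Il15ra at the epicenter was -0.003 with upper-quartile factors. Below, Il33 was -0.0516 without above 1 and below 3, and -0.0518 to 0.2681 over single libraries left out. Il17d below was -0.0212 with limma-voom, -0.0255 without a filter, -0.0083 with upper-quartile factors, and -0.0964 to 0.1533 over libraries left out. Il12rb1 below ranged over -0.0115 to 0.3072 and Il27ra above over -0.0648 to 0.1931 when libraries were left out.

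The labels give replicate numbers 1 to 4 in each group but no shared animal or day. Among the injured segments the deviations of same-numbered libraries correlated by 0.112, 0.194, 0.309 and 0.0789 between epicenter and below, by 0.0133, 0.132, 0.179 and -0.0525 between epicenter and above, and by -0.0466, 0.150, -0.0895 and -0.0170 between above and below (numbers 1 to 4). Between epicenter and below all 8 libraries correlated best with their own number, which is a hint from the data, not the design. As no 2 segments had every pair over 0.1, the numbers were not taken as pairs. With the replicate number as a block, 45 interleukin genes were called at the epicenter, 5 above and 36 below against uninjured cord. Over all tested genes that was 7568 higher and 7196 lower, 717 and 91, and 5537 and 4132, in the same order. This fit called 39 interleukin genes between epicenter and above, 10 between epicenter and below and 27 between above and below. Over all tested genes these comparisons gave 6734 higher and 5996 lower, 2570 and 2188, and 2535 and 3630. Il17d below became -0.015 with the block. The 22 untested genes did not pass the filter on low counts.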
